A study of Mus musculus with 4 samples.

Results

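The interleukin-1 family genes *Il1a*, *Il1b*, *Il1rn*, *Il18* and *Il33*, and the receptor genes *Il1r1*, *Il1rl1* and *Il1rap*, were followed in cultured mouse mammary cells with and without baicalin, a flavonoid glucuronide. These 8 genes were selected by symbol, with expression values of these libraries already known, from the 54446 genes listed, so their levels and changes are given as a description and no test is made on them. RNA from mammary gland cells of wild type C57BL/6 mice, sorted as basal cells or luminal cells and grown in 3D in Matrigel, was sequenced after culture with DMSO as the control or with 100 μM baicalin. There were 4 libraries, 1 per group: basal DMSO, basal baicalin, luminal DMSO and luminal baicalin. The treatment time and the number of mice behind a library are not given in the sources used here. With 1 library per group, no difference has a replicate check and no p-value is given.

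The interleukin-1 family is a group of cytokines that start and shape inflammation. IL-1α and IL-1β bind the receptor IL-1R1, which then takes up the accessory protein IL-1RAcP and signals through MyD88 and IRAK kinases to NF-kB, while the antagonist IL-1Ra occupies the same receptor without a signal. IL-33 uses the receptor ST2 with the same accessory protein, and IL-18 has its own receptor pair. Epithelial cells hold IL-1α, IL-33 and the precursor of IL-18 before any stimulus and release them on damage, whereas IL-1β is made mainly by activated myeloid cells.

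Expression is given as FPKM, a fragment count divided by exon length and by library depth. The exon length takes in all annotated exons of a gene, merged, and was 1974 bases for *Il1a*, 5535 for *Il1rn* and 11360 for *Il1rap*. Levels of different genes can be compared only as far as this length matches the transcripts made, which was not tested. The steps between low FPKM values showed that 19356105 to 20648794 fragments lay behind each library, and all 32 values of the 8 genes came out as whole fragments. Intervals are 95% intervals on these fragments, exact Poisson for a level and exact Clopper-Pearson for a ratio, and cover counting error only, since fragments without molecular identifiers are not independent molecules. A change is log2 of the ratio of 2 levels after adding 1 FPKM to each. That addition makes the change of weakly expressed genes smaller than their plain ratio.

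The cell labels were checked first against marker genes. The lists of basal markers and of luminal keratins went against the labels, and those of luminal subtypes were mixed. Of 10 basal and myoepithelial markers, 9 had more FPKM in luminal DMSO than in basal DMSO, and all 10 luminal keratin and epithelial markers had less. *Krt5*, a basal keratin, was at 128 FPKM in basal DMSO against 2015 FPKM in luminal DMSO. *Krt8*, a luminal keratin, was at 1573 against 383 FPKM. With baicalin, 9 of the 10 basal markers were again higher, and 9 of the 10 luminal markers lower, in the library labelled luminal. Of 10 hormone-sensing luminal markers, 4 were higher in luminal DMSO than in basal DMSO, as that label would have it, and 5 were lower. The higher ones were *Cited1* (7.36 against 0.0574 FPKM), *Foxa1* (9.30 against 1.80 FPKM), *Pgr* (4.81 against 1.08 FPKM) and *Esr1* (1.44 against 0.992 FPKM). The lower ones were *Cd14* (10.4 against 68.9 FPKM), *Areg* (21.4 against 63.2 FPKM), *Ly6a* (28.0 against 50.6 FPKM), *Prom1* (1.79 against 12.7 FPKM) and *Prlr* (2.40 against 6.50 FPKM). Under baicalin, *Foxa1* and *Esr1* were lower in the library labelled luminal, and *Ly6a* was higher there (78.1 against 23.2 FPKM). Of 10 alveolar luminal markers, 3 were higher in luminal DMSO and 5 lower. The libraries are therefore named by their labels alone, and no direction between the labels is read as one between basal and luminal cells.

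Transcript levels of the 8 genes differed widely. By the highest level each reached in any library, *Il1a*, *Il33* and *Il1rap* came first and *Il1rn*, *Il1r1* and *Il18* next, and *Il1rl1* and *Il1b* were below 0.3 FPKM in every library. Across the 4 libraries the highest level was 206 times the lowest for *Il33*, 21.8 times for *Il1a*, 4.90 times for *Il1b*, 4.21 times for *Il1rn*, 3.97 times for *Il1rl1*, 2.58 times for *Il18*, 2.57 times for *Il1r1* and 1.99 times for *Il1rap*.

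**Figure D1:**
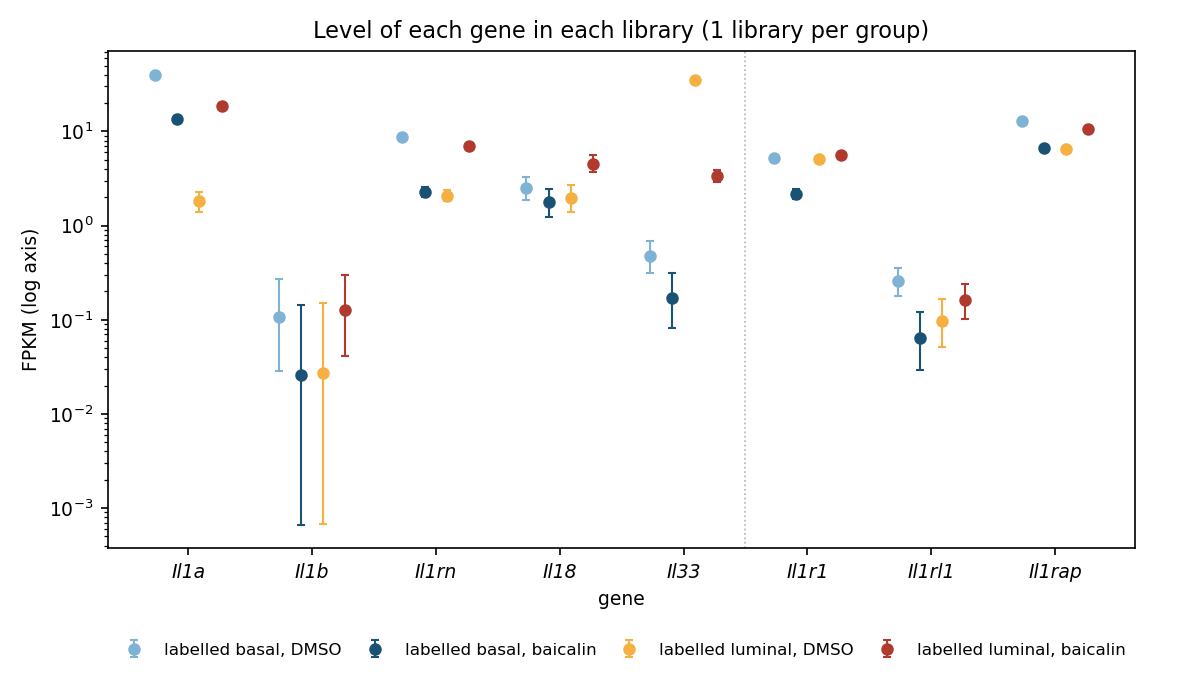
FPKM (log axis) of each of the 8 genes in each of the 4 libraries; points are levels, bars are exact Poisson 95% intervals on recovered fragments, 1 library per group, and the dotted line separates ligands and antagonist from receptors. *Il1a* is highest in the DMSO library labelled basal (39.3 FPKM) and lowest in the one labelled luminal (1.81 FPKM), and *Il33* is highest in the DMSO library labelled luminal (35.2 FPKM).

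The promoters of *Il1a*, *Il1rn* and *Il33*, the 3 genes past the fold with baicalin in at least 1 label, are shown so that the letters ahead of each start can be read beside the levels. They are the 250 bases before a RefSeq transcript start on GRCm38.p6, written 5′ to 3′ on the gene's strand, with capitals marking a match to the AP-1 motif TGANTCA. *Il1a* has 1 start, and the stretch is chr2:129309973-129310222 on the minus strand. For *Il1rn* it is the first of 3 starts, chr2:24336610-24336859 on the plus strand, and for *Il33* the first of 2 starts, chr19:29924863-29925112 on the plus strand.
Il1a: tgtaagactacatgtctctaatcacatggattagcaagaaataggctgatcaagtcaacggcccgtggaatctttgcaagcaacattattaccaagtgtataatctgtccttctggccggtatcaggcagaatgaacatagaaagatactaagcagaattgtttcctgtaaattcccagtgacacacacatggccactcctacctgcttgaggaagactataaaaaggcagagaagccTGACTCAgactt
Il1rn: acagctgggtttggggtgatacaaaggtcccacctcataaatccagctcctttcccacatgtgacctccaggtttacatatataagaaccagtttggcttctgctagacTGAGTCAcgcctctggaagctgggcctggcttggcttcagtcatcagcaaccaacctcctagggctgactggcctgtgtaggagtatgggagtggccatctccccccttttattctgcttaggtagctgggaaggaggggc
Il33: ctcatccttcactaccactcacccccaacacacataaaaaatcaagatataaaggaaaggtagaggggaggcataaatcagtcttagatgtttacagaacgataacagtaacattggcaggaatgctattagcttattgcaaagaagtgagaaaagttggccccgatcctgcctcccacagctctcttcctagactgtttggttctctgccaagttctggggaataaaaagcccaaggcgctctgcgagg

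The *Il1a* match, TGACTCA, lies at bases -12 to -6 counted from the transcript start, and the *Il1rn* match, TGAGTCA, at -141 to -135. Both strands were searched from 250 bases before to 50 after each start, for AP-1, for the antioxidant response element TGACNNNGC, and for NF-kB and interferon-stimulated response motifs of 10 letters each. RefSeq gave 13 starts for the 8 genes. The *Il33* stretch shown held none of these letters, and no window of *Il1b* or *Il18* did. The windows of the other *Il1rn* starts held none either, so its AP-1 match belongs to the first start alone. *Il1r1* had an NF-kB match at its second start, *Il1rl1* an antioxidant response match at its second start and *Il1rap* an interferon-stimulated response match. Of 32851 promoters of the same length, 7.81% held the AP-1 letters, 12.4% the antioxidant response element, 8.46% the NF-kB motif and 3.44% the interferon-stimulated motif. A match describes letters in these windows and not binding.

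*Il1a*, which encodes IL-1α, lies on chromosome 2 at 129299610 to 129309972 on the minus strand (ENSMUSG00000027399, GRCm38). It was at 39.3 FPKM in the DMSO library labelled basal (interval 37.4 to 41.3) and 13.5 FPKM in the baicalin library labelled basal (12.4 to 14.7). In the libraries labelled luminal it was at 1.81 FPKM with DMSO (1.41 to 2.29) and 18.4 FPKM with baicalin (17.1 to 19.8). The DMSO library labelled basal was thus the highest, the DMSO library labelled luminal the lowest, and the pair with baicalin lay between them. Every neighbour in this order differed beyond counting error. With baicalin *Il1a* was at 0.344 of its DMSO level in the label basal (interval 0.312 to 0.380, log2 change -1.47) and at 10.2 times it in the label luminal (7.97 to 13.3, log2 change 2.79). Among the 17787 genes above 0 FPKM in all 4 libraries, only 12 had a larger increase in the label luminal.

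Between the labels, *Il1a* was 21.8-fold lower in the library labelled luminal with DMSO (17.1 to 28.1, log2 change -3.84) and 1.36 times higher there with baicalin (1.22 to 1.52, log2 change 0.42). The antisense transcript *Gm14023* shares 222 exon bases with *Il1a*, and as the sources used here do not say whether counting used strand, their reads may be mixed. *Gm14023* was listed at no more than 0.664 FPKM in any library. The next gene along the chromosome, *Ckap2l*, was at 26.3, 4.46, 25.6 and 17.4 FPKM in basal DMSO, basal baicalin, luminal DMSO and luminal baicalin.

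*Il1b*, which encodes IL-1β (chromosome 2, 129364570 to 129371139, minus strand) and is separated from *Il1a* by 54598 bases, was close to the limit of detection. It had 4 fragments in basal DMSO, 1 in basal baicalin, 1 in luminal DMSO and 5 in luminal baicalin, or 0.106, 0.0259, 0.0271 and 0.127 FPKM. No library differed from its neighbour in level beyond counting error. The ratio with baicalin was 0.245 in the label basal (0.00497 to 2.47) and 4.69 in the label luminal (0.525 to 222), intervals too wide to give a direction. The antisense gene *Il1bos*, which shares 25 exon bases with *Il1b*, was listed at 0.135, 0.281, 0.052 and 0.0325 FPKM in the same order of libraries, above *Il1b* itself in all but luminal baicalin, so without a known strand setting some of these few fragments may be its own. The *Il1a* level was 66.6 to 523 times that of *Il1b* within a library.

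*Il1rn*, which encodes the receptor antagonist IL-1Ra, lies on chromosome 2 at 24336853 to 24351494. It was at 8.76 FPKM in basal DMSO (8.22 to 9.34), 2.26 in basal baicalin (1.99 to 2.56), 2.08 in luminal DMSO (1.82 to 2.37) and 6.99 in luminal baicalin (6.52 to 7.49). The order of the libraries resembled that of *Il1a* at its ends, with basal DMSO highest and luminal DMSO lowest, although luminal DMSO and basal baicalin did not differ beyond counting error (ratio 1.09, 0.904 to 1.31). With baicalin the level was 0.258 of DMSO in the label basal (0.224 to 0.297, log2 change -1.58) and 3.36 times DMSO in the label luminal (2.89 to 3.91, log2 change 1.37). With DMSO it was 4.21-fold lower in the library labelled luminal (3.64 to 4.89, log2 change -1.66), and with baicalin 3.09 times higher there (2.68 to 3.57, log2 change 1.29).

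*Il1a* and *Il1rn* differed in the same direction in all 4 comparisons, but by unequal factors. The *Il1a* level was 4.49 times the *Il1rn* level in basal DMSO, 5.98 times in basal baicalin, 0.868 times in luminal DMSO and 2.64 times in luminal baicalin. In luminal DMSO the levels of the pair had overlapping intervals, and in the other libraries *Il1a* was the higher one in FPKM. Before division by exon length, *Il1rn* had more fragments than *Il1a* in luminal DMSO (223 against 69) and in luminal baicalin (799 against 751). The order of the pair in luminal baicalin thus rests on the exon lengths used. In luminal DMSO *Il1rn* was the higher one by fragments and also in FPKM, though with overlapping intervals in FPKM.

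*Il18*, the gene of the caspase-activated cytokine IL-18 (chromosome 9, 50554827 to 50581840), was at 2.49 FPKM in basal DMSO (1.86 to 3.28), 1.77 in basal baicalin (1.25 to 2.44), 1.95 in luminal DMSO (1.39 to 2.67) and 4.56 in luminal baicalin (3.70 to 5.56). Luminal baicalin stood above the other libraries, and those did not differ from their neighbours beyond counting error. The ratio with baicalin was 0.710 in the label basal, where the interval held 1 (0.452 to 1.11), and 2.33 in the label luminal (1.59 to 3.47, log2 change 0.91). Between 37 and 97 fragments lay behind each value, so the gene was measured less precisely than *Il1a* or *Il1rn*.

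*Il33*, which encodes the nuclear alarmin IL-33 (chromosome 19, 29925114 to 29960718), had the opposite distribution from *Il1a* with DMSO. It was at 0.471 FPKM in basal DMSO (0.311 to 0.686) and 0.171 in basal baicalin (0.0819 to 0.314). In luminal DMSO it reached 35.2 FPKM (33.7 to 36.8), and in luminal baicalin it was at 3.36 FPKM (2.91 to 3.86). Luminal DMSO stood far above the rest, and every neighbour in the order differed beyond counting error. With baicalin *Il33* was 10.5-fold lower in the label luminal (9.07 to 12.2, log2 change -3.06), a decrease exceeded by 5 of the genes tested. In the label basal the ratio was 0.363 (0.157 to 0.773) on 10 against 27 fragments, and the log2 change of -0.33 stayed within the fold. Between the labels *Il33* was 74.7 times higher in luminal DMSO (51.2 to 114, log2 change 4.62) and 19.7 times higher in luminal baicalin (10.5 to 41.6, log2 change 1.90).

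The makeup of the ligand transcripts differed accordingly. The summed FPKM of *Il1a*, *Il1b*, *Il1rn*, *Il18* and *Il33*, the antagonist included, was 51.2 in basal DMSO, 17.8 in basal baicalin, 41.1 in luminal DMSO and 33.5 in luminal baicalin. *Il1a* made up 76.9%, 76.2%, 4.396% and 55.1% of this sum in the same order, and *Il33* made up 0.921%, 0.961%, 85.7% and 10.03%. In luminal DMSO *Il33* was at 19.5 times the level of *Il1a*, and in luminal baicalin at 0.182 times.

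*Il1r1*, the gene of the signalling receptor for IL-1α and IL-1β (chromosome 1, 40225080 to 40317257), was at 5.16 FPKM in basal DMSO (4.77 to 5.57), 2.18 in basal baicalin (1.93 to 2.45), 5.11 in luminal DMSO (4.72 to 5.52) and 5.59 in luminal baicalin (5.20 to 6.01). Only basal baicalin stood apart, below the other libraries, which did not differ from their neighbours beyond counting error. The ratio with baicalin was 0.422 in the label basal (0.366 to 0.486, log2 change -0.96) and 1.10 in the label luminal, where the interval held 1 (0.983 to 1.22). The libraries labelled luminal and basal had a ratio of 0.990 with DMSO (0.885 to 1.11) and 2.57 with baicalin (2.24 to 2.96, log2 change 1.05).

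*Il1rl1*, which encodes the IL-33 receptor ST2 (chromosome 1, 40429570 to 40465415), had 35 fragments in basal DMSO, 9 in basal baicalin, 13 in luminal DMSO and 23 in luminal baicalin, or 0.256, 0.0644, 0.0974 and 0.162 FPKM. Ordered by level, no neighbouring libraries differed beyond counting error, though basal baicalin was below basal DMSO (ratio 0.252, 0.106 to 0.534). In the label luminal the ratio with baicalin was 1.66 with an interval that held 1 (0.806 to 3.56). *Il1r1* was at 20.2 to 52.4 times the level of *Il1rl1* within a library, also in luminal DMSO, where *Il33* was at its highest.

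*Il1rap*, which encodes the accessory protein shared by the IL-1 and IL-33 receptors (chromosome 16, 26581704 to 26730117), was at 12.98 FPKM in basal DMSO (12.5 to 13.5), 6.66 in basal baicalin (6.33 to 7.004), 6.53 in luminal DMSO (6.19 to 6.87) and 10.7 in luminal baicalin (10.3 to 11.1). Basal DMSO was highest, luminal baicalin next, and the other libraries did not differ beyond counting error (ratio 1.02, 0.949 to 1.10). The ratio with baicalin was 0.513 in the label basal (0.482 to 0.546, log2 change -0.87) and 1.64 in the label luminal (1.54 to 1.75, log2 change 0.64). Neither passed a log2 change of 1. *Il1rap* exceeded *Il1r1* in every library, by 1.28 times in luminal DMSO to 3.06 times in basal baicalin. The antisense gene *Gm20319*, which shares 552 exon bases with *Il1rap*, was listed at 0 in all 4 libraries.

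**Figure D2:**
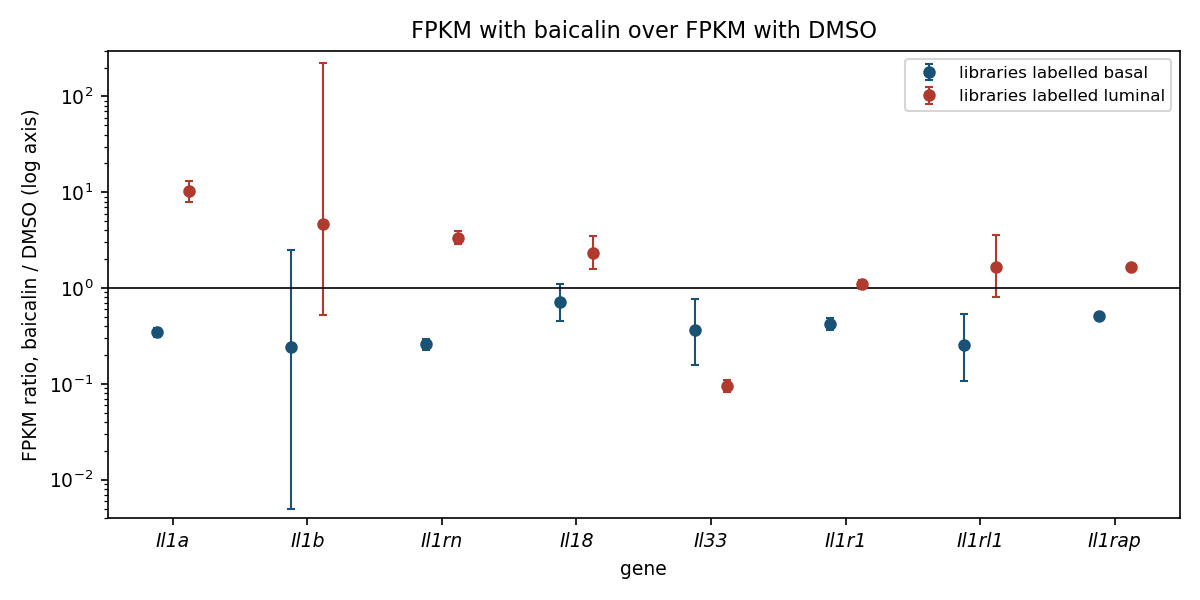
FPKM ratio of baicalin to DMSO (log axis) for each of the 8 genes under each label, with exact Clopper-Pearson 95% intervals that cover counting error only, and the line marking a ratio of 1. *Il1a*, *Il1rn* and *Il1rap* lie below 1 in the libraries labelled basal and above 1 in those labelled luminal, and *Il33* lies below 1 under both labels.

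With baicalin in the label basal, 0 of the 8 genes were higher and 2 were lower past a log2 change of 1, namely *Il1rn* and *Il1a*, where 2.15% of all genes tested were higher and 3.33% lower. All 8 changes were below 0, with a median of -0.60 against 0.01 over all genes. The ratio interval lay below 1 for 6 genes and above 1 for 0, where 26.3% of all genes lay below and 28.1% above, and it held 1 for *Il1b* and *Il18*. In the label luminal, 2 genes were higher past the fold, *Il1a* and *Il1rn*, and 1 was lower, *Il33*, where 2.37% of all genes were higher and 1.59% lower. Here the median was 0.39 against -0.02 over all genes. Intervals lay above 1 for *Il1a*, *Il1rn*, *Il18* and *Il1rap* and below 1 for *Il33*, where 22.9% of all genes lay above and 28.7% below. As the genes were picked with these values known, these counts describe them and are not read against the shares.

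**Figure D3:**
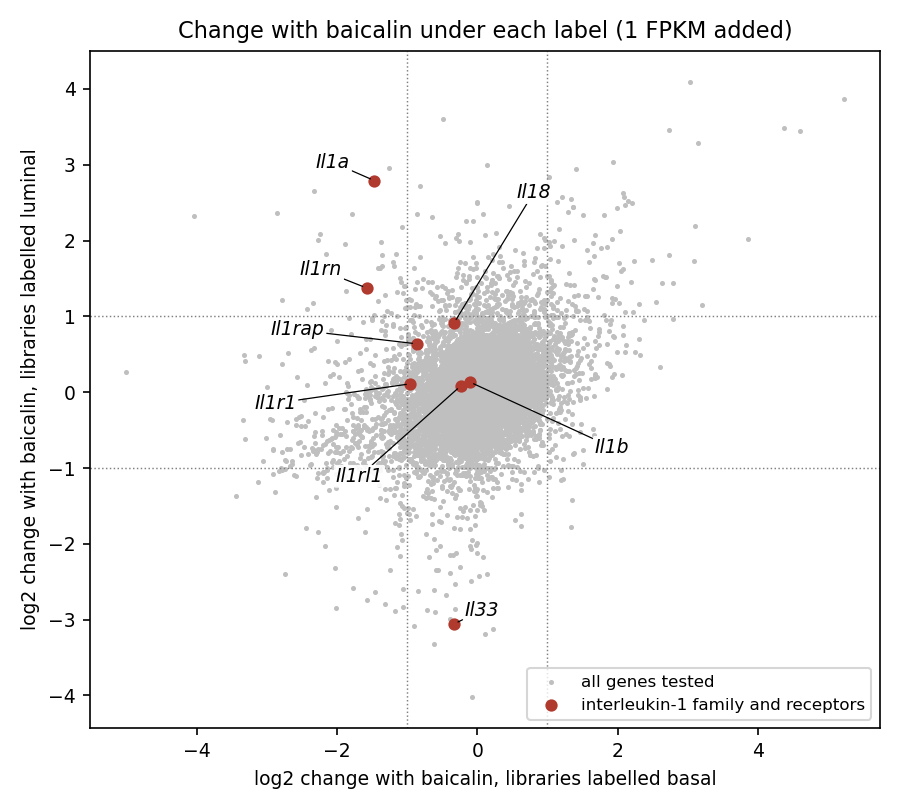
Log2 change with baicalin after adding 1 FPKM in the libraries labelled basal (x axis) against those labelled luminal (y axis) for the 17787 genes tested (grey) and the 8 genes (red), with dotted lines at a change of 1 either way. *Il1a* and *Il1rn* both lie past the fold downward in the label basal and upward in the label luminal, and *Il33* is far down at -3.06 in the label luminal.

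The comparisons between the labels use the same 4 libraries as the comparisons with baicalin, so they are not separate evidence. With DMSO, 1 of the 8 genes (*Il33*) was higher in the library labelled luminal past the fold and 2 (*Il1a* and *Il1rn*) were lower, where 4.71% of all genes were higher and 3.86% lower. Intervals lay above 1 for *Il33* alone and below 1 for *Il1a*, *Il1rn*, *Il1rl1* and *Il1rap*, against 30.5% and 30.2% of all genes. With baicalin, 4 genes were higher in the library labelled luminal (*Il33*, *Il1rn*, *Il1r1* and *Il18*) and 0 lower, where 5.24% of all genes were higher and 2.99% lower. The change of *Il18* was at the threshold itself. Intervals lay above 1 for 7 genes, all but *Il1b*, and below 1 for 0, against 25.8% and 33.7% of all genes.

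**Figure D4:**
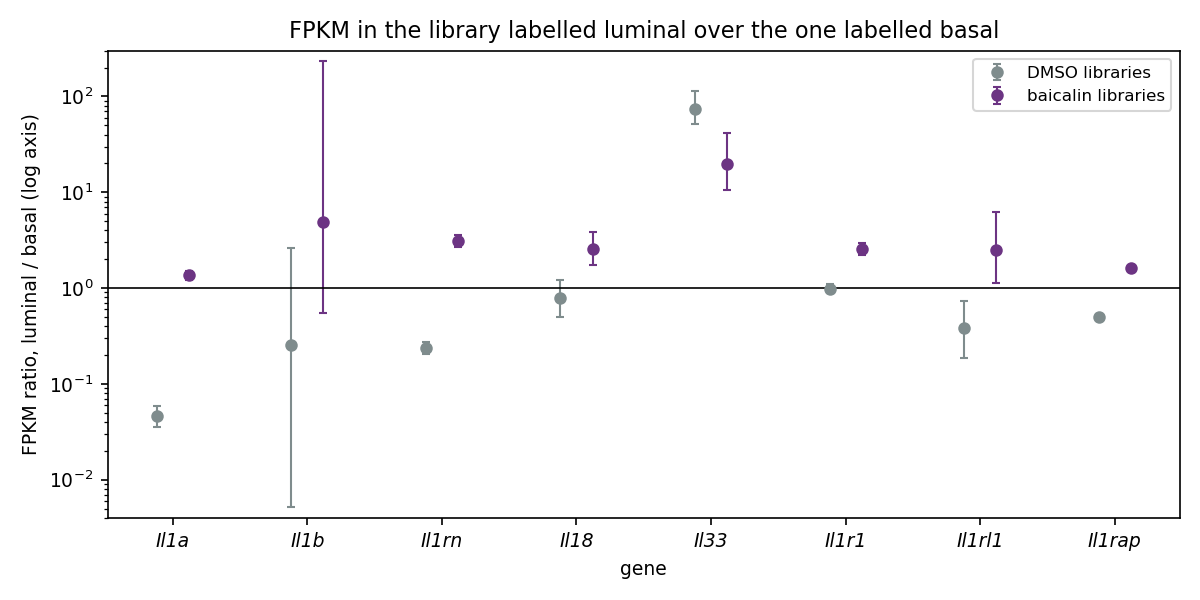
FPKM ratio of the library labelled luminal to the library labelled basal (log axis) for each of the 8 genes, with DMSO and with baicalin, with exact Clopper-Pearson 95% intervals that cover counting error only. *Il33* lies above 1 in both comparisons (74.7 with DMSO and 19.7 with baicalin), while *Il1a* and *Il1rn* lie below 1 with DMSO and above 1 with baicalin.

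Marker levels of the epithelial layers differed alongside these genes. The summed FPKM of the 10 basal markers was 1988 in basal DMSO, 669 in basal baicalin, 5253 in luminal DMSO and 6291 in luminal baicalin. For the 10 luminal keratin and epithelial markers it was 4532, 3213, 1374 and 1192. *Krt14* and *Krt5* carried most of the basal sum. From basal DMSO to basal baicalin, all of the 10 basal markers but *Myh11* (0.0729 to 0.0843 FPKM) were lower. Among them were *Krt5* (128 to 3.01 FPKM), *Trp63* (6.01 to 0.3055 FPKM) and *Krt14* (1494 to 417 FPKM). From luminal DMSO to luminal baicalin, the pair of libraries in which *Il33* was lower with baicalin, the 10 basal markers went in both directions. *Oxtr* (19.4 to 3.61 FPKM), *Cnn1* (11.7 to 3.43 FPKM), *Tagln* (97.6 to 47.2 FPKM), *Mylk* (5.76 to 3.29 FPKM) and *Acta2* (555 to 417 FPKM) were lower. *Krt14* (2308 to 3132 FPKM), *Krt5* (2015 to 2415 FPKM), *Itgb1* (207 to 232 FPKM), *Trp63* (25.2 to 27.0 FPKM) and *Myh11* (9.50 to 11.6 FPKM) were higher. The part of cell makeup in the differences of the 8 genes was not tested, and in bulk RNA fewer cells of a type and less RNA per cell cannot be told apart.

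Leukocytes, a known source of IL-1β, IL-1α and IL-1Ra, left little RNA by most of their markers. The study's cell sort stained for the leukocyte, endothelial and erythroid antigens CD45, CD31 and TER119 before culture, and a gate against them would remove such cells. *Ptprc*, the common leukocyte antigen CD45, was at 0.0138 FPKM in basal DMSO and lower in the other libraries. Of 13 macrophage and monocyte markers, 11 were under 1 FPKM in all 4 libraries and 2 were at 0 in all. Their sum was 17.1, 53.8, 5.57 and 16.5 FPKM in basal DMSO, basal baicalin, luminal DMSO and luminal baicalin, mostly from *Cd68*, a lysosomal protein gene also expressed outside macrophages, at 7.49, 51.5, 4.44 and 13.7 FPKM, and from *Lyz2*, a lysozyme gene, at 8.84, 2.17, 0.903 and 2.61 FPKM. The 8 neutrophil markers summed to 1.64, 1.35, 1.02 and 9.24 FPKM in the same order, with 4 at 0 in all libraries. *S100a8* and *S100a9*, which epithelial cells can also express, made up most of this, and were at 0.521 and 0.396 FPKM in luminal DMSO and at 5.02 and 3.99 FPKM in luminal baicalin, the pair of libraries in which *Il1a* was 10.2 times higher with baicalin. Their part in that difference was not tested. The 10 lymphocyte markers summed to 0.631 to 1.48 FPKM with 6 at 0, and the 7 mast cell and basophil markers to at most 0.091 FPKM with 6 at 0. Stromal markers were also low, with sums of 3.13 to 11.3 FPKM for 8 fibroblast genes and 1.22 to 4.75 FPKM for 8 endothelial genes, and none of these was at 0 in any library.

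Genes with the most similar pattern were found by the distance between log2(FPKM + 1) values centred on each gene's mean over the 4 libraries, among 12655 genes with at least 1 FPKM in at least 2 libraries. For *Il1a* they were *Tnf*, a cytokine gene (distance 0.93), *Cxcl2*, a neutrophil chemokine gene (0.95), and *Mmp10*, a matrix protease gene (1.07). *Tnf* was at 54.4, 39.4, 6.46 and 28.2 FPKM in basal DMSO, basal baicalin, luminal DMSO and luminal baicalin, so it too was lowest in luminal DMSO. *Il33* was nearest to *Emid1* (0.28), to the basal keratin gene *Krt15* (0.39) and to *Lgr5*, a Wnt pathway receptor gene (0.69). *Krt15* was at 0.485, 0.725, 42.6 and 4.00 FPKM, with luminal DMSO far above the rest, as for *Il33*.

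*Il1rn* was nearest to the microRNA gene *Mir6995* (0.11) and to *Klk8* (0.26) and *Klk10* (0.29), which encode kallikrein-related peptidases. *Mir6995* was at 2.13 FPKM in basal DMSO, 0 in basal baicalin, 0 in luminal DMSO and 1.36 in luminal baicalin. It is thus outside the filter of more than 0 FPKM in all libraries, and its place rests on low levels. *Klk8* was at 25.7, 9.38, 7.01 and 24.3 FPKM, high in the same libraries as *Il1rn*. *Il1r1* was nearest to *Gm13689* (0.11), to *Stard4*, a sterol carrier gene (0.11), and to *Anpep*, an aminopeptidase gene (0.12), and *Il18* to *Gm2423* (0.08), *Gm15421* (0.09) and *Tspan9* (0.14). The other members spanned less than 1 on this log2 scale and were not compared. With 4 libraries, such distances are a description only.

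The rest of the family was read from lists of symbols. Of the other ligand genes, 5 were found and 2 passed the filter of more than 0 FPKM in all libraries. *Il1f9*, which encodes IL-36γ, was at 0.245 FPKM in basal DMSO, 2.30 in basal baicalin, 0.314 in luminal DMSO and 9.08 in luminal baicalin. It was higher with baicalin under both labels, by a ratio of 9.42 (4.55 to 22.6) in the label basal and 29.0 (15.5 to 61.0) in the label luminal. *Il1f6*, which encodes IL-36α, was at most 0.439 FPKM. *Il1f5*, the gene of the IL-36 receptor antagonist, and *Il1f8*, the gene of IL-36β, had 0 fragments in both libraries labelled basal, 1 each in luminal DMSO, and 22 and 19 in luminal baicalin. *Il1f10* was at 0 in all libraries.

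Of 8 other receptor and binding protein genes, 5 passed the filter. With baicalin, 0 of the 5 passed the fold in the label basal (median log2 change -0.29), where 2.15% of all genes were higher and 3.33% lower. In the label luminal 2 were higher and 0 lower (median 0.34), where 2.37% and 1.59% of all genes were. Those 2 encode the chains of the IL-18 receptor. *Il18r1* was at 9.25, 7.39, 1.28 and 5.77 FPKM in basal DMSO, basal baicalin, luminal DMSO and luminal baicalin, and *Il18rap* at 2.27, 1.88, 0.298 and 1.94 FPKM. Both were lowest in luminal DMSO, and with baicalin in that label the ratio was 4.52 (3.71 to 5.56) for *Il18r1* and 6.51 (4.64 to 9.36) for *Il18rap*. *Il18r1* begins 137 bases after *Il1rl1* on chromosome 1, which itself stayed below 0.3 FPKM. *Il1rl2*, the IL-36 receptor gene, lies 7353 bases after *Il1r1* and was at 4.44, 2.27, 6.41 and 8.40 FPKM, lowest in basal baicalin as *Il1r1* was. *Il1r2*, which encodes the decoy receptor of IL-1, had 4, 0, 0 and 1 fragments.

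All 25 signalling genes below the receptor were tested. With baicalin 0 passed the fold under either label, with medians of 0.11 in the label basal and -0.06 in the label luminal. Of all genes tested, 2.15% were higher and 3.33% lower past the fold in the label basal, and 2.37% and 1.59% in the label luminal. With shares this low, a count of 0 among 25 is not read as particular to these genes. *Ikbkg*, which encodes the regulatory subunit of the IκB kinase complex, had the largest change in the label basal, from 8.61 to 17.1 FPKM. *Map3k8*, a kinase gene of the same pathway, went from 6.78 to 11.7 FPKM in the label basal and from 6.35 to 12.1 FPKM in the label luminal. *Myd88*, named here after its values were seen as the adaptor gene of these receptors, stayed between 14.3 and 18.2 FPKM. Between the labels 1 of the 25 was higher past the fold in the library labelled luminal and 0 were lower, with DMSO and with baicalin alike. Of all genes, 4.71% were higher and 3.86% lower with DMSO, and 5.24% and 2.99% with baicalin, so the count is near these shares. The 1 gene is named here after its values were seen. It was *Peli2*, a Pellino ubiquitin ligase gene, at 11.3 FPKM in luminal DMSO against 0.560 in basal DMSO (ratio 20.2, 16.5 to 24.9, log2 change 2.98) and at 8.29 in luminal baicalin against 0.9004 in basal baicalin (ratio 9.21, 7.84 to 10.9, log2 change 2.29).

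Of 18 genes of processing and release, 15 were tested. With baicalin 1 was higher past the fold and 0 lower in the label basal (median -0.04), where 2.15% and 3.33% of all genes were. In the label luminal 0 passed it (median 0.26), where 2.37% of all genes were higher and 1.59% lower. The 1 gene was *P2rx7*, an ATP-gated channel gene linked to IL-1 release, at 8.22 FPKM with DMSO and 18.8 with baicalin. In the label luminal the largest change was that of *Gsdmd*, which encodes the pore protein gasdermin D, at 0.9998 FPKM with DMSO and 2.89 with baicalin. *Casp1*, the gene of the protease that cuts the IL-1β and IL-18 precursors, was at 27.2 and 46.2 FPKM there.

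The 33 IL-1 and NF-kB target genes had median changes of opposite sign under the labels. In the label basal, 2 passed the fold upward and 6 downward, where 2.15% and 3.33% of all genes did, the median was -0.27, and 10 lay above and 23 below 0. The largest decreases were in *Ccl2*, a monocyte chemokine gene (33.6 to 4.03 FPKM), and in the matrix protease genes *Mmp13* (53.4 to 9.11 FPKM) and *Mmp3* (32.2 to 6.02 FPKM). *Ccl20*, a chemokine gene, and *Ptgs2*, the gene of inducible cyclooxygenase, were the 2 higher ones (4.08 to 10.4 and 89.0 to 182 FPKM). In the label luminal, 18 passed the fold upward and 0 downward, where 2.37% and 1.59% of all genes did, the median was 1.07, and 31 lay above and 2 below 0. *Saa3*, an acute phase gene, went from 0.238 to 14.01 FPKM, *Ptgs2* from 7.14 to 57.3 FPKM and *Tslp*, an epithelial cytokine gene, from 3.33 to 20.5 FPKM.

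Between the labels with DMSO, 21 of the 33 target genes were lower and 0 higher in the library labelled luminal (median -1.41), where 3.86% and 4.71% of all genes were. With baicalin 5 were lower and 5 higher (median -0.08), where 2.99% and 5.24% of all genes were. The list includes *Tnf* and *Cxcl2*, which were also the nearest in pattern to *Il1a*. The lists were written with earlier results of these libraries known, and nothing particular to them is read from these counts.

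**Figure D5:**
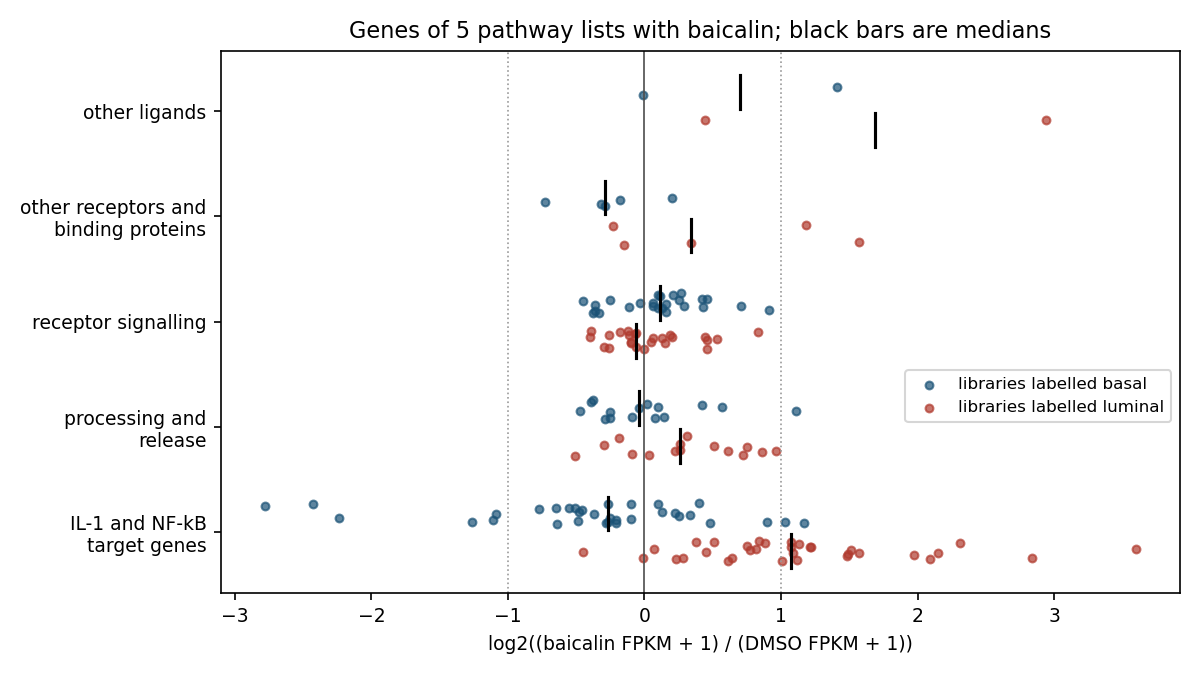
Log2 change with baicalin after adding 1 FPKM for each tested gene (points) of the 5 pathway lists under each label, with the list's median as a black bar and dotted lines at a change of 1 either way. The target genes lie mostly below 0 in the label basal (median -0.27) and mostly above 0 in the label luminal (median 1.07), while the receptor signalling genes lie near 0 under both labels.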

How the data were processed

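Poly(A) RNA of 4 libraries was sequenced from stranded libraries, and the authors deposited 1 FPKM value per gene and library. The paper's methods name HISAT2 and featureCounts with GRCm38 and Ensembl release 94, while the submitters' processing notes name Bowtie 0.12.2, mm8 and GRCm38. Which step used mm8 or Bowtie is not given in the sources used here, nor is the strand setting. The authors' filter of genes above 0 FPKM in all samples was applied, leaving 17787 genes. The members, gene lists and rules were chosen with earlier results of these data known. The named genes were the 8 members, the 3 genes of each pathway list with the largest change with baicalin under each label, the leading gene of each marker list with 6 keratin and myoepithelial genes, and the 3 genes nearest in pattern to a member that spanned at least 1 on the log2 scale. Not every gene so selected is printed, and the other list members printed (the low or less changed interleukin-1 family genes, *Myd88*, *Peli2* and further marker genes) were added after their values were seen.

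Fragments were recovered from the FPKM steps and the exon lengths of GENCODE mouse release 21 (54409 genes). Of genes under 50 fragments, 98.7% to 98.9% per library came within 0.1 of a whole fragment. Changes were log2 ratios after adding 1 FPKM, called past 1. With 1 library per group no count test could be made. The study's *t*-test needs replicates. The computation was tested on simulated data. Motifs were searched in RefSeq promoters, and the alternatives were other pseudocounts, filters, TPM, centring on the median ratio and a threshold of 2. Transcripts were aligned with BLAST to look for near-identical genes, at 95% identity over 200 bases, and only the antisense partners of *Il1a* and *Il1rap* were found at that length. Tools were Python 3.11.15 with scipy 1.17.1, pandas 2.3.3 and numpy 2.4.6, and figures were drawn with matplotlib 3.10.9. The study's libraries of hormone treatment were not analysed here.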

Additional observations from a re-analysis of the deposited data

Results flagged for a closer look

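Of the 8 genes, 3 had a baicalin to DMSO ratio whose counting interval lay on opposite sides of 1 in the libraries of the 2 labels. *Il1a* had ratios of 0.344 in the label basal and 10.2 in the label luminal. *Il1rn* had ratios of 0.258 and 3.36, and *Il1rap* had ratios of 0.513 and 1.64. With 1 library per group, the difference between the labels was not tested.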

How the results depend on the processing

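The counts of the 8 genes past the fold depended on the pseudocount and the threshold. With baicalin in the label basal the count of 2 became 5 with a pseudocount of 0.1 FPKM, 6 with none and 0 at a threshold of 2. In the label luminal the count of 3 became 5 with no pseudocount. Between the labels, the count of 3 with DMSO became 5 with no pseudocount, and the count of 4 with baicalin became 0 at a threshold of 2. By construction, a smaller pseudocount shrinks low genes less and a higher threshold passes fewer genes. This holds for all genes alike. Their share past the fold was not taken under the alternatives, so the shares given earlier do not apply to these counts. The other 22 of 28 alternatives for these counts stayed within 1.5 times the value given, among them TPM and centring. The other filters on low FPKM are among the 22 but could not have changed these counts. All 8 genes were above 0 FPKM in every library. A gene past the fold after adding 1 FPKM also has a level above 1 FPKM in its higher library. Of 128 alternatives for the changes of single genes, 56 moved by more than the counting interval, with a smaller or no pseudocount or with TPM, and 0 changed direction. Of 140 alternatives for the list counts, 26 moved past 1.5 times. No paired analysis was possible because each group has 1 library, and for the same reason no replicate could be left out. Depth limits *Il1b* (1 to 5 fragments) and *Il1rl1* (9 to 35 fragments) most.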
